A study of Mus musculus with 26 samples.

Results

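Interferon-stimulated genes are the transcripts that cells switch on when interferon reaches them. Their levels are described here in mouse liver for 38 such genes, chosen by gene symbol and found by Ensembl ID among the 55642 gene IDs of the count table. The list holds 23 genes best known from the type I response (Usp18, the Ifit and Oas genes, Isg15 and others) and 15 best known as gamma-inducible (guanylate binding proteins, immunity related GTPases, antigen processing genes, Irf1 and Ubd). This division is a convention, since many of these genes answer to both kinds of interferon.

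RNA was sequenced from 26 liver samples in 4 groups. Wildtype mice ate control chow (5 samples) or CDAHFD (6 samples), a diet rich in fat that supplies defined amino acids and no choline. Mice with a heterozygous knockout (7 samples, Het) or a homozygous knockout (8 samples, Hom) of Mtarc1, which encodes a molybdenum enzyme of the outer mitochondrial membrane, ate CDAHFD. The diet lasted 2 weeks, and a diet that lacks choline is known to load the liver with fat and to bring in inflammatory cells. Knockout liver on chow was not analysed here, so every genotype comparison is on the diet. The labels give no strain, sex or age, do not say how the knockout was made, and do not say whether samples came from different animals. The p-values therefore reflect how much these samples vary.

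In this pathway, type I interferons (alpha and beta) bind the receptor of Ifnar1 and Ifnar2, and interferon gamma binds that of Ifngr1 and Ifngr2. Janus kinases at the receptors then activate STAT proteins. A type I complex that holds Stat2 and Irf9 binds a promoter element called the interferon-stimulated response element (ISRE), while the gamma response acts through the gamma-activated site (GAS). In liver these genes are expressed by hepatocytes as well as by macrophages and other immune cells, and the bulk RNA used here cannot tell fewer cells of a type from less RNA per cell.

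Both elements can be seen in the RefSeq promoter windows (build GRCm38.p6, the 250 bases before the start of the gene), which held 28 of the 38 genes. The ISRE core was searched on both strands as a pair of GAAA separated by any 2 bases, and the GAS as TTCNNNGAA, which reads the same on both strands. The windows below were picked to show matches in genes that rose on the diet (Ifit3, Oas1a, Gbp2, Gbp3, Irgm2) and in genes that did not pass the test (Isg15, Ifit1, Irf1, Igtp). Each is 80 bases, 5′ to 3′ along the gene's strand, with the matching bases in capitals.
Isg15: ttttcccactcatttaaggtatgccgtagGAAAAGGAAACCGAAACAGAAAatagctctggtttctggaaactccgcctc
Ifit1: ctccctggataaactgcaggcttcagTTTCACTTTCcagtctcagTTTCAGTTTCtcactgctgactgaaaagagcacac
Ifit3: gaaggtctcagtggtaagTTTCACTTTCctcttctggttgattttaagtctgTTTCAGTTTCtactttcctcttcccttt
Oas1a: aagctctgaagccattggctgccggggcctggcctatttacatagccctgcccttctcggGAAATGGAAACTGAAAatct
Gbp2: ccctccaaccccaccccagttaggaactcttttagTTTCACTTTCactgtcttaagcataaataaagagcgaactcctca
Gbp3: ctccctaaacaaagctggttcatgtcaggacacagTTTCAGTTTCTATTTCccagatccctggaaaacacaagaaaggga
Irf1: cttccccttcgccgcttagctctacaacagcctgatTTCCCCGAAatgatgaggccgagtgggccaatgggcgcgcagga
Igtp: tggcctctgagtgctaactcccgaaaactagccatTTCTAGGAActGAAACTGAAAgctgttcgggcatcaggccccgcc
Irgm2: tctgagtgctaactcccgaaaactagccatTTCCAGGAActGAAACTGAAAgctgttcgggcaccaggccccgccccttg
In this order the windows lie at chr4:156200846-156200925 (minus strand), chr19:34640759-34640838 (plus strand), chr19:34583355-34583434 (plus strand), chr5:120907526-120907605 (minus strand), chr3:142620569-142620648 (plus strand), chr3:142559964-142560043 (plus strand), chr11:53769888-53769967 (plus strand), chr11:58199476-58199555 (plus strand) and chr11:58214872-58214951 (plus strand). An ISRE core was present in the windows of 13 of the 28 genes (46.4%), against 936 of 27025 genes with a window (3.46%). By class it was present in 7 of 16 type I genes and 6 of 12 gamma-inducible genes. A GAS was present in 8 of 28 (28.6%), against 8.13% of all genes, with 3 of 16 in the type I class and 5 of 12 in the gamma-inducible class. The windows of Igtp and Irgm2, neighbours on chromosome 11, were identical at 77 of 80 aligned bases, with the GAS and the ISRE core side by side in both. A match describes these letters and is not a measured binding site.

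The libraries held 19728398 to 29906599 estimated counts each, and 17104 genes, all 38 members among them, passed the filter on low counts. Mtarc1 followed the labels: it was at 264 to 361 CPM (counts scaled to a common library size) in wildtype chow, 193 to 291 in wildtype CDAHFD, 112 to 208 in Het and 33.4 to 65.3 in Hom. The hepatocyte markers Alb and Apoa1 were abundant in every library. Library numbers fell into a series with 4 digits and a series with 5 digits, which the labels do not call batches. The 4-digit series held 1 of the 5 chow libraries, 3 of 6 wildtype CDAHFD, 3 of 7 Het and 2 of 8 Hom libraries. Chow sample 4 had the highest level in its group for 19 of 23 type I and 11 of 15 gamma-inducible genes, and Hom sample 1 for 15 and 7. Hom sample 4 was the highest of its group for 3 type I and 7 gamma-inducible genes. These 3 libraries are called here the libraries that stand apart, and values without them are given beside the results they move. They were picked after the data were seen, for high levels of these same genes. Leaving them out therefore lowers the chow and Hom levels by construction and is no independent check. Libraries uneven in other ways were kept. Chow sample 3 was the lowest of its group for 15 of 23 type I genes, and wildtype CDAHFD sample 2 the highest for 12. The mitochondrial share of counts was 8.64% to 16.3% in chow, 7.67% to 13% in wildtype CDAHFD, 6.24% to 11.5% in Het and 6.77% to 11.6% in Hom.

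On the diet, 27 of the 38 genes rose in wildtype liver and none fell (edgeR quasi-likelihood test, Benjamini-Hochberg adjusted p under 0.05). Across all genes tested, 14.8% rose and 12.2% fell. The type I class had 18 of 23 higher, with a median log2 fold change of 0.63, and the gamma-inducible class 9 of 15, with a median of 0.34. The median over all genes tested was -0.01. The difference between the classes was not tested. All 6 diet libraries lay above all 5 chow libraries for 12 of the 38 genes, against 7.95% of all genes tested. These were Usp18, Ifit2, Oas1a, Oasl1, Parp14, Ifi27l2b and Ifi44 in the type I class and Gbp2, Gbp3, Tap1, Tap2 and Ubd in the gamma-inducible class.

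**Figure D1:**
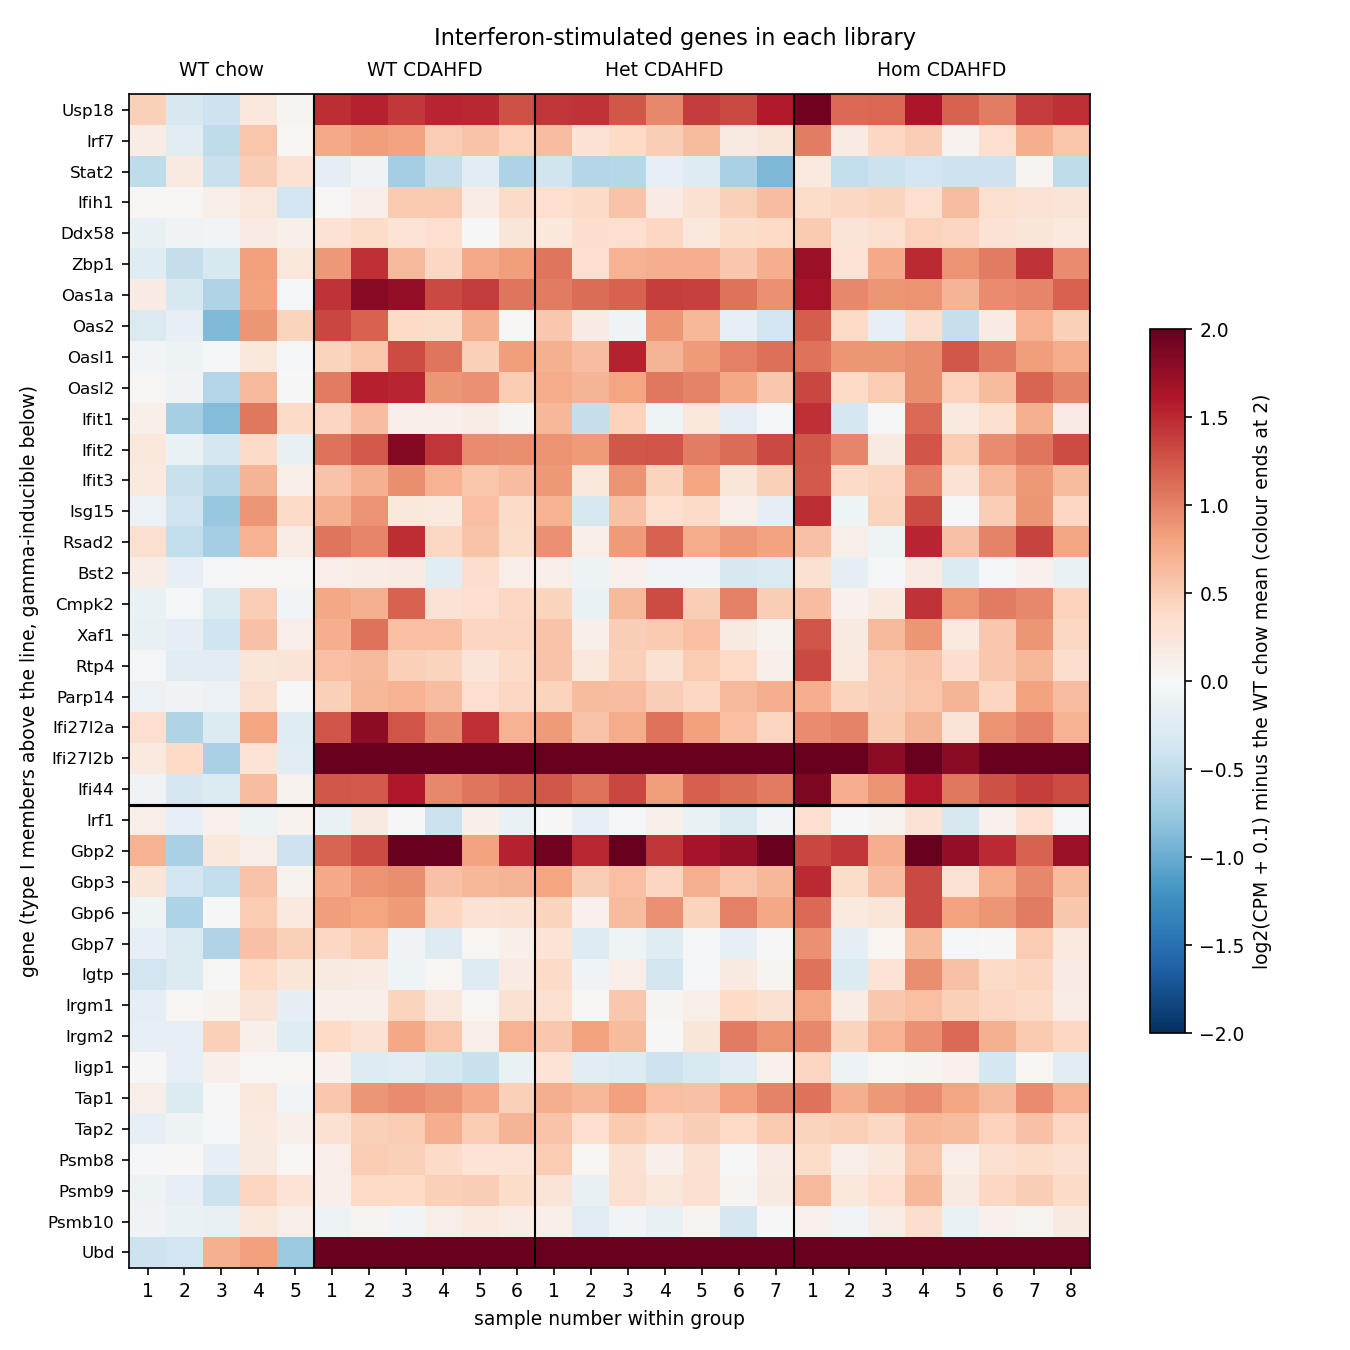
Level of each of the 38 genes (vertical) in each of the 26 libraries (horizontal, by group and sample number), as log2(CPM + 0.1) minus the mean of the 5 wildtype chow libraries. Colour runs from blue (lower than chow) to red (higher) and ends at 2. Ifi27l2b and Ubd are high in every CDAHFD library, while Irf1, Bst2 and Iigp1 stay near the chow level. Chow sample 4 and Hom samples 1 and 4 show as columns redder than their neighbours.

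Among the regulators, 2 of 4 rose. Usp18, a protease that removes ISG15 from proteins and damps signalling by the type I receptor, was at 18.6, 10.6, 9.99, 15.4 and 13.8 CPM in the 5 chow libraries. In wildtype CDAHFD its lowest, median and highest values were 32.5, 37.7 and 38.9 CPM. The groups did not overlap, and the diet libraries were closer together than the chow libraries. The log2 fold change was 1.43 ± 0.16 (SE), or 2.69-fold, with an adjusted p of 4.9e-07. Irf7, the transcription factor that amplifies type I interferon production, rose by 0.62 ± 0.16 (adjusted p = 0.0041). Stat2, the STAT particular to the type I complex, ranged from 113 to 227 CPM on chow and from 98.7 to 152 on the diet, with a log2 fold change of -0.42 ± 0.17 (adjusted p = 0.076). Irf1, a transcription factor switched on through the GAS, had a log2 fold change of -0.06 ± 0.11 (adjusted p = 0.74), which was 0.18 when counts were scaled by raw library totals.

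All 3 nucleic acid sensors rose. The RNA sensors Ifih1 (MDA5) and Ddx58 (RIG-I) rose by small amounts, with log2 fold changes of 0.29 ± 0.11 and 0.25 ± 0.08. Zbp1, a sensor of Z-form nucleic acid that can set off cell death, rose by 0.79 ± 0.23 (adjusted p = 0.014). For all 3 the diet range overlapped the chow range. Ifih1 was called in 11 of 22 alternative settings, Ddx58 in 19 and Zbp1 in 21.

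Of the OAS family, some of whose members are enzymes that activate RNase L when they meet double-stranded RNA, 3 of 4 rose. Oas1a was at 6.03, 4.24, 3.47, 9.45 and 5.18 CPM on chow and at 11.3, 14.5 and 19.2 (lowest, median, highest) on the diet. Every diet library was thus above every chow library, and the log2 fold change was 1.42 ± 0.20 (adjusted p = 8.5e-06). The OAS-like genes Oasl1 and Oasl2 rose by 0.82 ± 0.16 and 1.07 ± 0.20. Oas2 overlapped widely between the groups, at 9.35 to 31.8 CPM on chow and 17.6 to 43.6 on the diet, with a log2 fold change of 0.62 ± 0.31 (adjusted p = 0.15). Oas1a has a near-identical neighbour, Oas1g, and the split of reads between such copies is uncertain.

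The antiviral effectors were divided, with 4 of 7 higher. Ifit2, which binds foreign RNA, was at 6.58, 5.12, 4.44, 7.34 and 5.07 CPM on chow and at 10.8, 12.6 and 20.3 on the diet, a log2 fold change of 1.27 ± 0.19 (adjusted p = 2.1e-05). Ifit3 rose by 0.62 ± 0.19, Rsad2 (viperin) by 0.79 ± 0.28 and Cmpk2, a mitochondrial nucleotide kinase beside Rsad2 in the genome, by 0.63 ± 0.24. Isg15, the ubiquitin-like modifier that Usp18 removes, did not pass the test. Its chow values were 22.4, 18.5, 14.4, 44.9 and 31.8 CPM and its diet values 27.7, 34.4 and 45.2, so that chow sample 4 lay near the top of the diet range (log2 fold change 0.41 ± 0.28, adjusted p = 0.31). Ifit1 was at 22, 13.1, 11.2, 42.9 and 27 CPM on chow and 21.5, 22.8 and 31.8 on the diet. Here the highest library of both groups was again chow sample 4 (log2 fold change 0.10 ± 0.31, adjusted p = 0.85). Bst2 (tetherin), which holds budding virus at the cell surface, had a log2 fold change of 0.12 ± 0.11 (adjusted p = 0.43). Isg15 and Ifit1, whose windows above hold 3 and 2 ISRE core matches, were thus not among the genes that rose, while Ifit3 and Oas1a, with 2 each, were. The matches overlap one another in Isg15 and Oas1a and are separate in Ifit1 and Ifit3, so these numbers are not alike.

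All 6 of the other type I genes rose. Ifi27l2b, a small membrane protein of the Ifi27 family, changed most in this class, from 9.48, 11, 5.24, 10.05 and 7.18 CPM on chow to 55.9, 75.6 and 96.2 on the diet. The log2 fold change was 3.10 ± 0.24, or 8.56-fold, with an adjusted p of 2.7e-09. Its relative Ifi27l2a rose by 1.20 ± 0.21, from a chow range of 4.19 to 11.2 CPM to a diet range of 10.5 to 22.6 CPM, and the ranges overlapped. Reads may be split between these relatives. Ifi44 was at 5.39, 4.48, 4.70, 8.74 and 5.97 CPM on chow and 11.2, 13.2 and 17.4 on the diet (1.20 ± 0.18, adjusted p = 2.2e-05). Xaf1, which opposes the caspase inhibitor XIAP, rose by 0.63 ± 0.18, Parp14, an ADP-ribosyltransferase, by 0.53 ± 0.09 and Rtp4 by 0.46 ± 0.15.

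In the gamma-inducible class, 3 of 4 guanylate binding proteins rose. These are large GTPases that attack the membranes of intracellular pathogens. Gbp2 was at 6.95, 2.68, 4.92, 4.67 and 3.17 CPM on chow and 7.49, 11.6 and 21.5 on the diet (1.55 ± 0.28, adjusted p = 0.00016). Gbp3 was at 25.7, 16.7, 15.4, 32.4 and 23 CPM on chow and 32.8, 35.9 and 41.4 on the diet (0.70 ± 0.19, adjusted p = 0.0059). The groups did not overlap for either, but for Gbp3 chow sample 4 lay just under the lowest diet library. Gbp6 rose by 0.56 ± 0.20, and Gbp7 had a log2 fold change of 0.08 ± 0.20 (adjusted p = 0.81).

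Of the immunity related GTPases, which guard vacuoles against intracellular parasites, 1 of 4 rose. That was Irgm2, by 0.46 ± 0.17 (adjusted p = 0.043). Igtp, whose promoter window is almost the same as that of Irgm2, was at 43.5, 46.5, 57.3, 75.1 and 67.2 CPM on chow and 47.5, 60.8 and 64.4 on the diet, a log2 fold change of 0.01 ± 0.18 (adjusted p = 0.97). Irgm1 had 0.20 ± 0.12 (adjusted p = 0.20). Iigp1 was at 393 to 476 CPM on chow and 325 to 471 on the diet, with a log2 fold change of -0.21 ± 0.13 (adjusted p = 0.24), which was 0.02 with raw library totals.

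Of the antigen processing genes, 4 of 5 rose. Tap1 and Tap2 form the transporter that carries peptides to MHC class I. Tap1 was at 31.8, 24.1, 29.1, 34.2 and 28.3 CPM on chow and 40.8, 51.8 and 56.3 on the diet (0.75 ± 0.10, adjusted p = 8.6e-06). Tap2 was at 35.2, 36.7, 38.9, 45.2 and 42.6 CPM on chow and 49.1, 56.1 and 65.3 on the diet (0.54 ± 0.08, adjusted p = 2.4e-05). Both changes were small in fold but clear of the spread, because the libraries of each group lay close together. The immunoproteasome subunits Psmb8 and Psmb9 each rose by 0.34 (SE 0.10 and 0.12), and the third, Psmb10, had 0.05 ± 0.09 (adjusted p = 0.71). Ubd, a ubiquitin-like modifier induced by interferon gamma and TNF, rose from 0.0921, 0.0974, 0.321, 0.352 and 0.0528 CPM on chow to 2.01, 6.15 and 8.55 on the diet. Its log2 fold change of 4.99 ± 0.82 (adjusted p = 8.1e-05) rests on 18 counts in all 5 chow libraries together, so its size is uncertain.

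**Figure D2:**
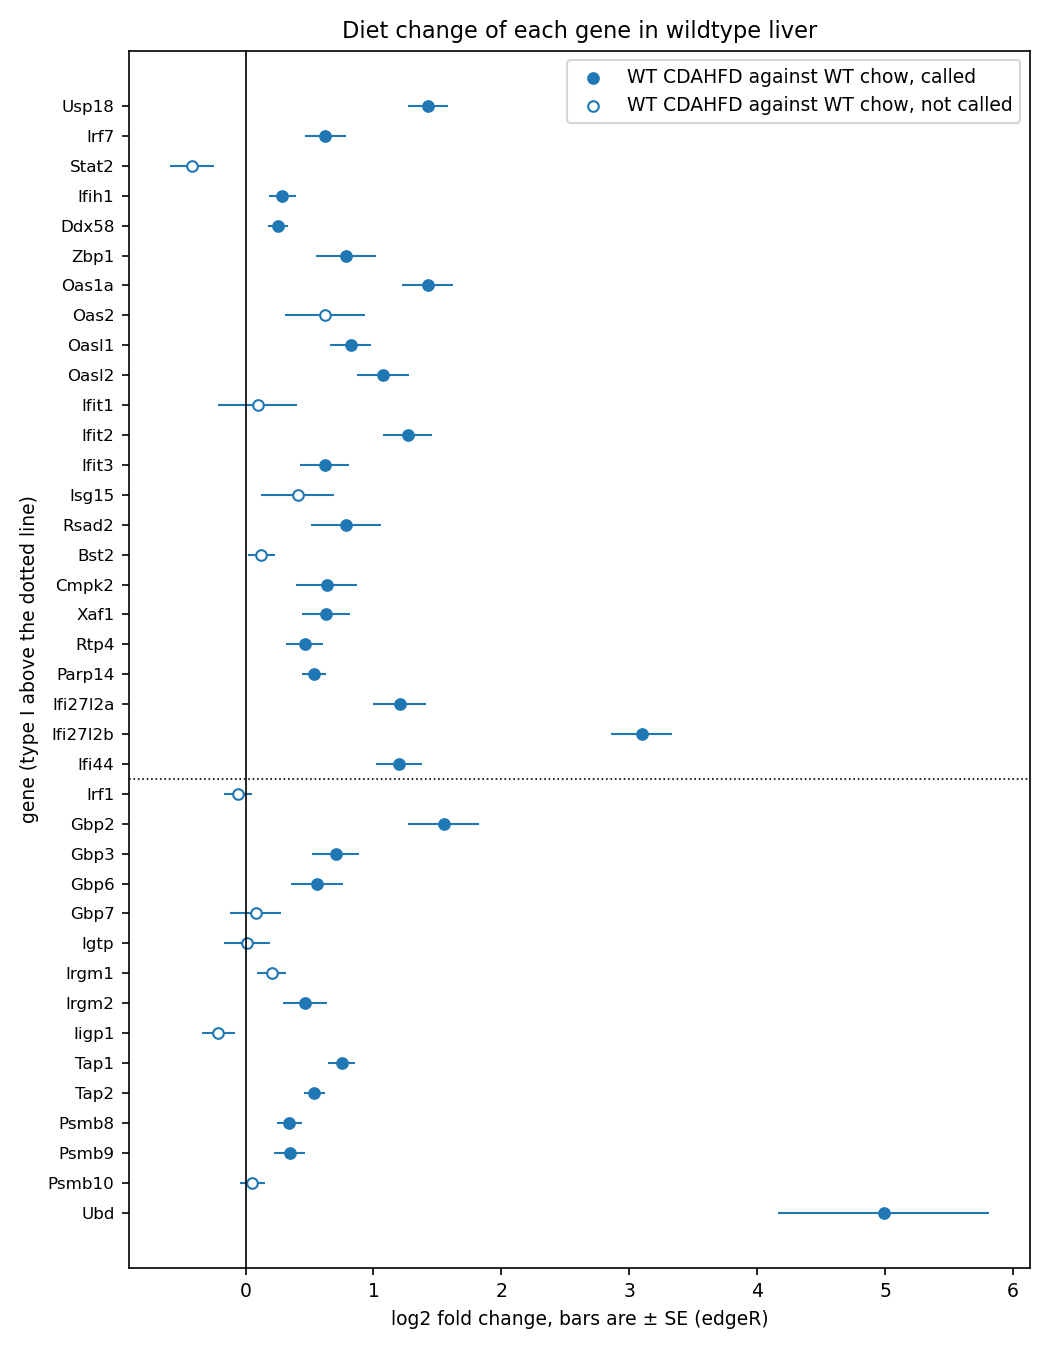
Log2 fold change of each gene in wildtype CDAHFD against wildtype chow, with bars of ± SE from edgeR. Filled points passed adjusted p under 0.05 and open points did not; type I genes stand above the dotted line. Of the 38 points 27 are filled, all to the right of 0, and Ubd (4.99) and Ifi27l2b (3.10) lie farthest out.

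Without the 3 libraries that stand apart, 28 genes were higher. Within the 5-digit series alone (4 chow and 3 wildtype CDAHFD libraries) the count was 13, made up of 9 type I and 4 gamma-inducible genes, with class medians of 0.43 and 0.30; the 4-digit series has 1 chow library, too few for this comparison.

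The level over a class shows how the libraries are ordered. The mean log2 CPM over the type I genes was 3.80 to 4.72 in chow, 4.80 to 5.21 in wildtype CDAHFD, 4.64 to 4.96 in Het and 4.64 to 5.36 in Hom. Chow sample 4, at 4.72, was thus above 3 Hom libraries and 1 Het library. In wildtype CDAHFD the type I mean was 5.07, 5.21 and 5.14 in the 4-digit libraries (samples 1 to 3). It was 4.88, 4.92 and 4.80 in the 5-digit libraries (samples 4 to 6). In Het and Hom the series overlapped. Since 4 of the 5 chow libraries are of the 5-digit series, series and diet are partly mixed in the diet comparison. The gamma-inducible mean was 4.63 to 5.19 in chow. It was 5.40 to 5.70, 5.29 to 5.75 and 5.35 to 6.03 in the 3 CDAHFD groups, with no overlap between chow and CDAHFD. Ubd, 1 of the 15 genes, weighs on this gap, at a log2 CPM of -2.91 to -1.21 in chow and 0.53 to 3.81 on CDAHFD. With each gene scaled to the same spread over the libraries, chow and CDAHFD overlapped. Chow sample 4 was then at -0.14, above Het samples 2 (-0.57), 4 (-0.36) and 6 (-0.18) and Hom sample 2 (-0.28). The 3 CDAHFD groups overlapped in both classes.

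**Figure D3:**
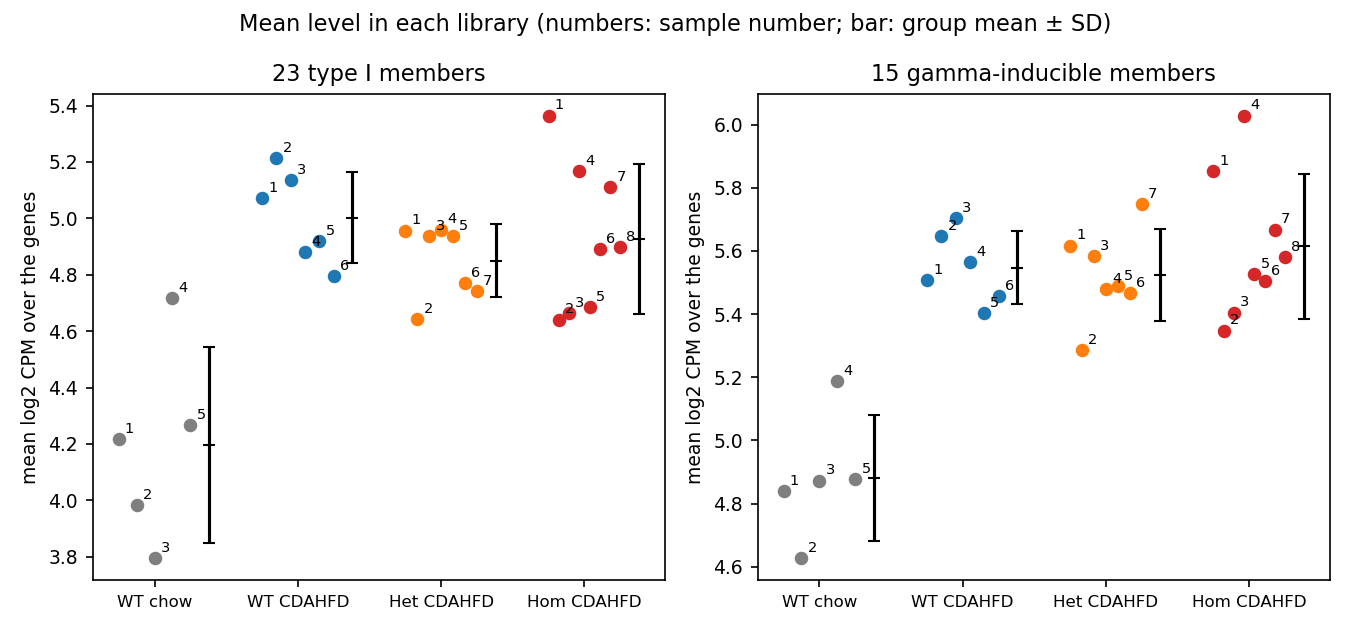
Mean log2 CPM over the 23 type I genes (left) and the 15 gamma-inducible genes (right) in each library, by group; numbers are sample numbers and the bar beside each group is the mean ± SD. Chow libraries are lowest in both panels except chow sample 4, whose type I mean (4.72) reaches the lower CDAHFD libraries. Hom samples 1 and 4 are the highest libraries in the gamma-inducible panel.

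In Hom against wildtype, both on CDAHFD, none of the 38 genes passed the test in edgeR, and DESeq2 and limma-voom also called none. In edgeR only 0.00585% of all genes tested passed, which is Mtarc1 alone. At an unadjusted p under 0.05, 2 members were higher and 3 lower, against 3.90% and 6.07% of all genes. Both counts are near these shares. The fold changes ran from -0.63 to 0.46 with a median of 0.07 (all genes 0.01). By class the median was 0.03 for the type I genes, with 13 of 23 above 0, and 0.11 for the gamma-inducible genes, with 11 of 15 above 0. Without the 3 libraries that stand apart both medians turned below 0, at -0.13 (7 above 0) and -0.01 (7 above 0). In that run 7 members had an unadjusted p under 0.05 with none called. Leaving out libraries picked as high lowers Hom by construction.

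The 3 lower values, a number near the share over all genes, were in type I genes that had risen on the diet. Most type I genes (18 of 23) had risen. The same 6 wildtype CDAHFD libraries serve in both comparisons, so a rise on the diet and a lower value in Hom are not independent. Ifi27l2b was at 55.9, 75.6 and 96.2 CPM (lowest, median, highest) in wildtype and at 29.0, 47.8 and 68.6 in Hom, with 5 of the 8 Hom libraries below every wildtype library. Its log2 fold change was -0.63 ± 0.19 (unadjusted p = 0.0020, adjusted p = 0.22), and all groups on the diet stayed far above the chow range of 5.24 to 11 CPM. Ifi27l2a was at 10.5, 15.5 and 22.6 CPM in wildtype and 7.72, 11.3 and 13 in Hom (-0.52 ± 0.18, adjusted p = 0.29). Oas1a had -0.45 ± 0.17 (adjusted p = 0.33).

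The 4 immunity related GTPases all had positive values in Hom, and 2 of them had an unadjusted p under 0.05. Igtp was at 47.5, 60.8 and 64.4 CPM in wildtype and at 46.8, 74.9 and 120 in Hom, and 6 of the 8 Hom libraries were above every wildtype library. The log2 fold change was 0.46 ± 0.16 (unadjusted p = 0.0087, adjusted p = 0.31). The 2 highest values, 120 and 108 CPM, came from Hom samples 1 and 4, and without the 3 libraries that stand apart the value was 0.24 (unadjusted p = 0.088). Irgm1 was at 59.8, 65.7 and 79.5 CPM in wildtype and 64.5, 79.5 and 101 in Hom (0.24 ± 0.10, adjusted p = 0.42), and 0.15 without those libraries. Irgm2 had 0.26 ± 0.15 and Iigp1 0.22 ± 0.12, neither with an unadjusted p under 0.05.

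In Het against wildtype on CDAHFD, none of the 38 genes passed the test, nor did any gene of the table (0%); DESeq2 and limma-voom also called no member. At an unadjusted p under 0.05, no member was higher and 2 were lower, against 4.13% and 4.31% of all genes. The median over the members was -0.11, and 12 of 38 had a value above 0. Without the libraries that stand apart, 5 members had an unadjusted p under 0.05 and none was called. Those libraries belong to neither of these groups and enter this comparison only through the fit shared by all groups. The class medians were -0.14 (type I) and -0.01 (gamma-inducible) both with and without them. The series of library numbers differed here. Within the 5-digit series the class medians were -0.02 for type I (9 above 0) and 0.04 for gamma-inducible genes (8 above 0), and no member had an unadjusted p under 0.05. Within the 4-digit series they were -0.24 (2 above 0) and -0.06 (6 above 0), and 8 members had one. This difference between the series was not tested. Ifi27l2a was at 8.67, 10.9 and 13.7 CPM in Het (-0.55 ± 0.18, adjusted p = 0.57), a range that overlapped the wildtype range of 10.5 to 22.6. Bst2 was at 160, 191 and 217 CPM in Het and 172, 219 and 254 in wildtype (-0.21 ± 0.10, adjusted p = 0.57). The gamma-inducible genes with the lowest p were the immunoproteasome subunits Psmb9 (-0.20 ± 0.11) and Psmb10 (-0.14 ± 0.09), both with an unadjusted p above 0.05.

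**Figure D4:**
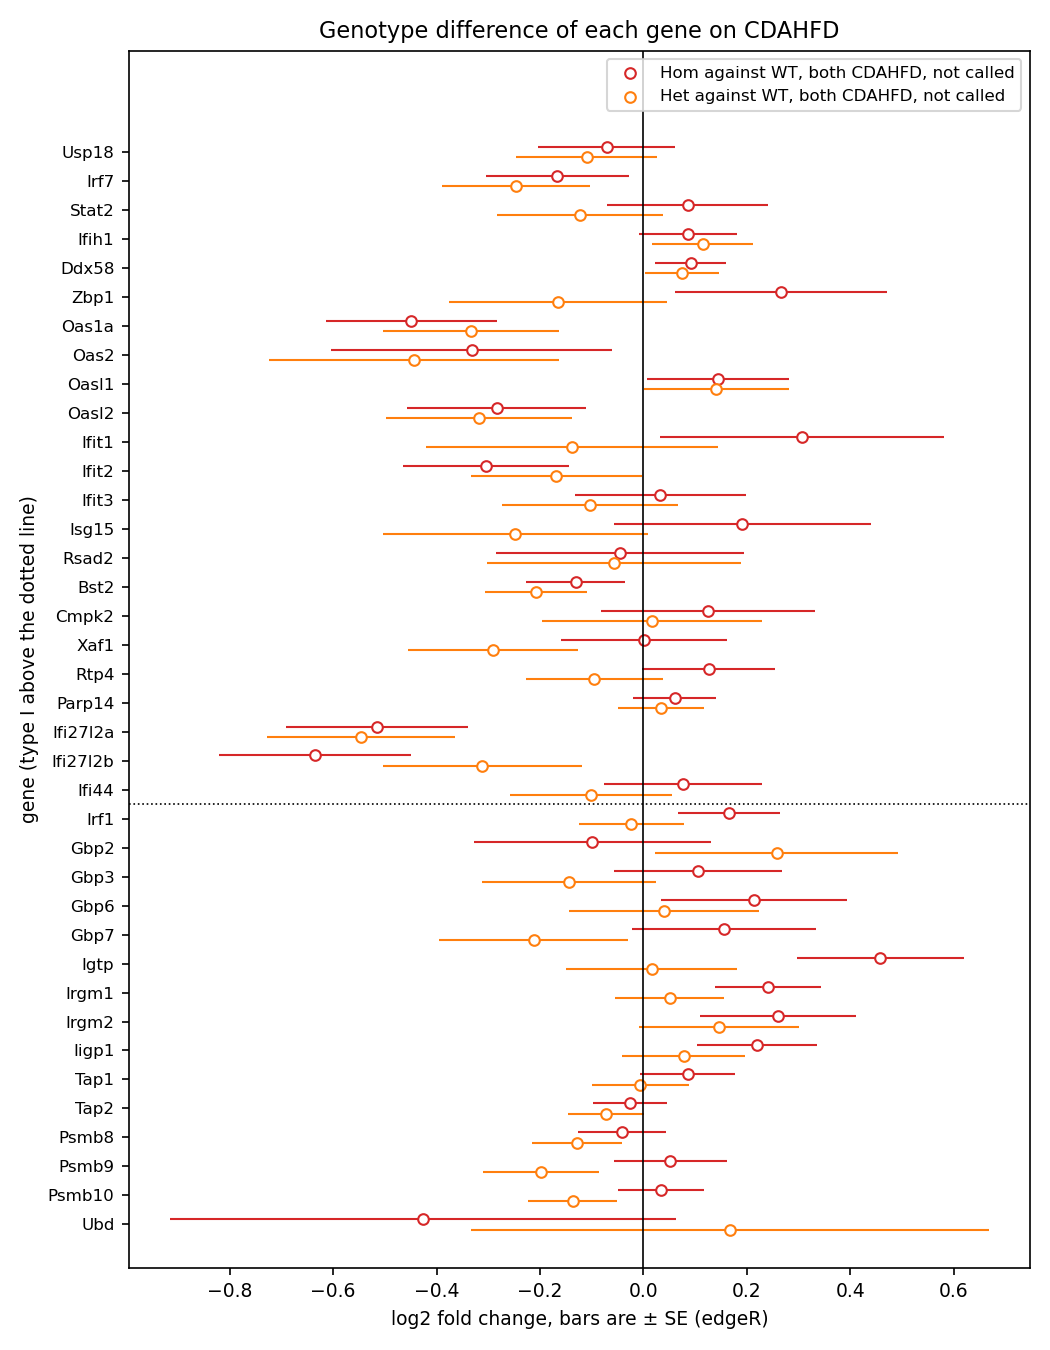
Log2 fold change of each gene in Hom (red) and Het (orange) against wildtype, all on CDAHFD, with bars of ± SE from edgeR; both comparisons use the same 6 wildtype libraries. Every point is open, since no gene passed adjusted p under 0.05. Ifi27l2b has the lowest Hom value (-0.63) and Igtp the highest (0.46).

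In Hom against Het, again none of the 38 genes passed the test, in edgeR (0.00585% of all genes), DESeq2 or limma-voom. At an unadjusted p under 0.05, 5 were higher (Zbp1, Gbp7, Igtp, Psmb9 and Psmb10) and none lower, against 3.54% and 3.58% of all genes. Only 2 members had such a p without the libraries that stand apart, 1 in the 5-digit series alone and none in the 4-digit series alone. Without those 3 libraries the number of type I genes above 0 went from 19 to 8 of 23. Igtp had a log2 fold change of 0.44 ± 0.15 (adjusted p = 0.52), which became 0.22 without them. Zbp1 was at 23, 30.2 and 38.5 CPM in Het and 22, 36.4 and 60.1 in Hom (0.43 ± 0.20, adjusted p = 0.69). Its value without those libraries was 0.23. Xaf1 had 0.29 ± 0.15 and Psmb9 0.25 ± 0.10, and the ranges of both overlapped between the groups. Without the libraries that stand apart these were 0.12 (unadjusted p = 0.37) and 0.16 (unadjusted p = 0.10).

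Each knockout group was also compared with wildtype chow, which joins diet and genotype and uses the same 5 chow libraries as above. In Hom, 29 genes were higher and none lower (18 type I, 11 gamma-inducible), where 12.3% of all genes were higher and 10.8% lower. In Het, 23 were higher (16 and 7) and 1, Stat2, was lower, where 19.3% and 17.9% of all genes were. Stat2 was at 113, 181, 117, 227 and 197 CPM on chow and at 86.0, 108 and 144 in Het (-0.54 ± 0.17, adjusted p = 0.013). It was not called when the libraries that stand apart were left out, or when counts were scaled by raw library totals; the counts of higher genes without those libraries were 28 in Hom and 27 in Het. Every Hom library was above every chow library for 11 of the 38 genes (4.61% of all genes), and every Het library for 12 (7.58%). Ifi27l2b had log2 fold changes of 2.46 ± 0.23 in Hom and 2.79 ± 0.23 in Het.

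**Figure D5:**
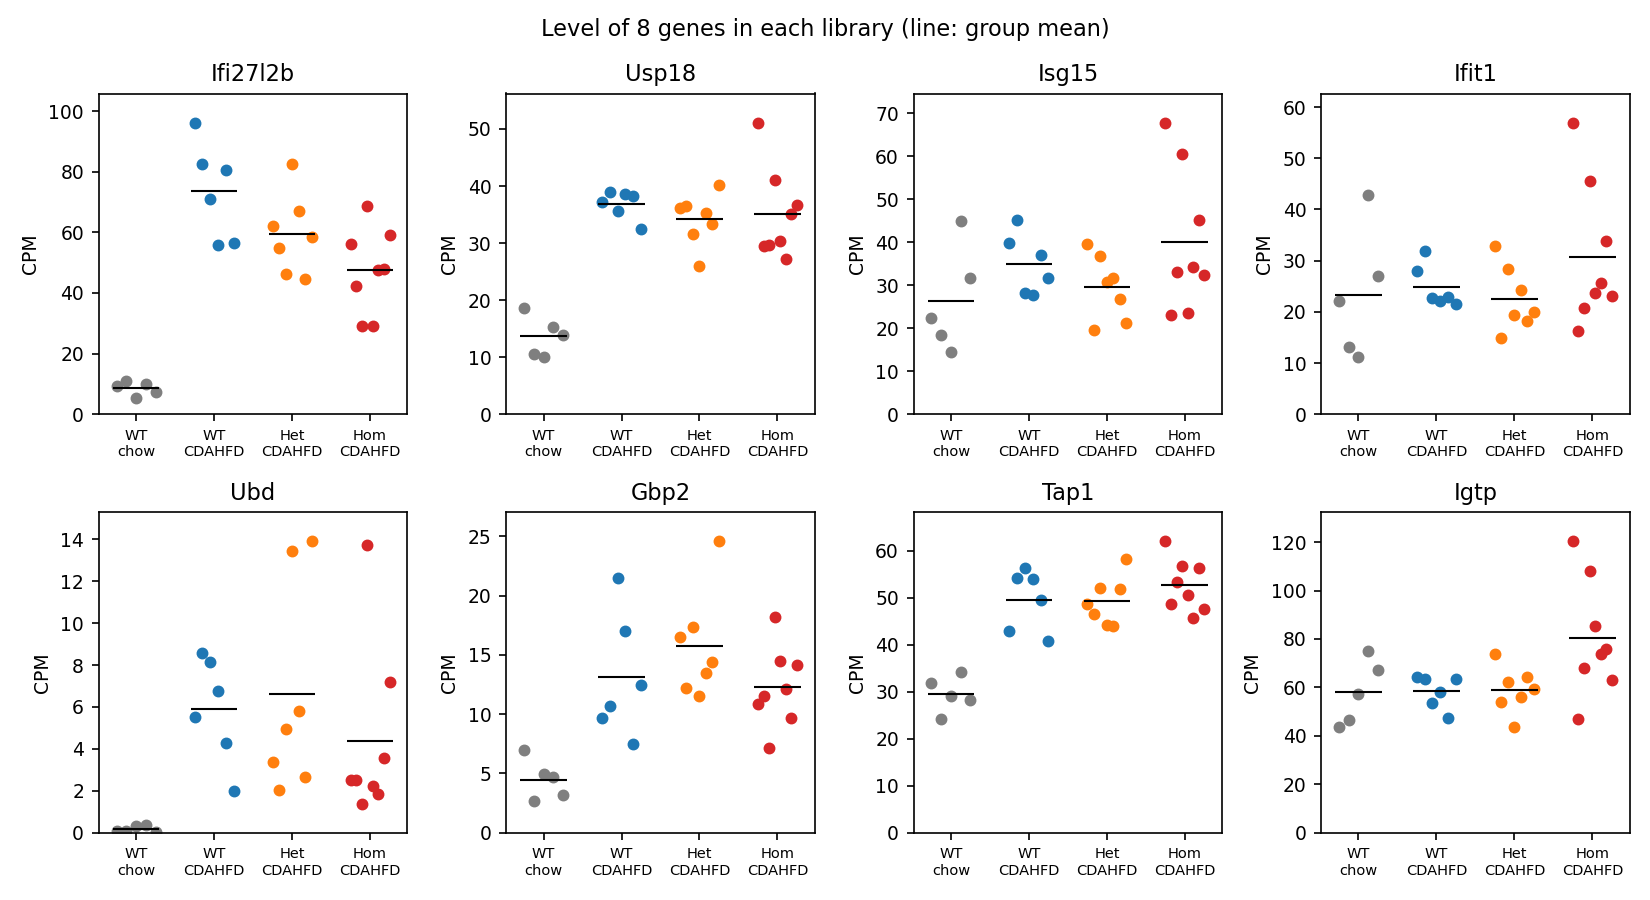
CPM of 8 genes in each library by group, on axes that start at 0; each point is a library and the line is the group mean. Ifi27l2b, Usp18 and Tap1 separate chow from every CDAHFD library, Isg15 and Ifit1 overlap between chow (up to 44.9 and 42.9 CPM) and CDAHFD, and Igtp is spread upward in Hom to 120 CPM.

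Libraries of one group varied as follows. The median within-group SD of log2 CPM was 0.32 for the type I genes and 0.21 for the gamma-inducible genes, against 0.25 for all tested genes with a mean of at least 1 CPM. The widest were Ubd (0.96), Oas2 (0.54), Ifit1 (0.53) and Isg15 (0.49), and the narrowest Ddx58 (0.11) and Tap2 (0.12). Ubd ran from 2.04 to 13.9 CPM in Het and from 1.37 to 13.7 in Hom, where sample 4 was at 13.7, sample 8 at 7.22 and the other 6 at 3.58 or below. Ifit1 ran from 16.2 to 57.0 CPM in Hom and Isg15 from 23 to 67.8, and sample 1 was the highest for both. Oas2 ran from 12.5 to 40.3 CPM in Hom and was again highest in sample 1. The median ratio of the highest to the lowest library over the 38 genes was 1.91 in chow, 1.5 in wildtype CDAHFD, 1.44 in Het and 1.93 in Hom.

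The interferons themselves were at or near the limit of detection, and none of 10 ligand genes passed the filter on low counts. Ifng had 83 counts over 22 of the 26 libraries, at most 0.379 CPM, and Ifnb1 had 2 counts in all. Ifna1, Ifna4, Ifna5, Ifnl2 and Ifnl3 had 0 counts in every library, which allows up to 3 counts in each, or 0.1 to 0.152 CPM by library total, for counting error only. Of 6 receptor genes, 3 rose on the diet and none fell. Ifngr1 and Ifngr2, the chains of the gamma receptor, rose by 0.49 ± 0.09 and 0.85 ± 0.17, and Il10rb, shared by the lambda interferon and interleukin receptors, by 0.91 ± 0.17. The type I receptor chains did not pass: Ifnar1 had 0.20 ± 0.08 (adjusted p = 0.050) and Ifnar2 -0.23 ± 0.10 (adjusted p = 0.079).

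Some kinase and IRF genes of the pathway also changed. Irf8, a factor of the macrophage and dendritic lineages, rose by 0.96 ± 0.17 and Jak1 by 0.26 ± 0.08. Irf3, which acts downstream of the nucleic acid sensors, fell by 0.45 (SE 0.09). Irf9, the partner of Stat2, had 0.07 ± 0.12 (adjusted p = 0.70). Of 8 inhibitors, 3 rose: Samhd1 (0.75 ± 0.09), Ptpn6 (0.47 ± 0.13) and Socs1 (1.07 ± 0.31).

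Of 12 sensing adaptor genes, 8 rose. Among them Tlr7, an endosomal RNA sensor, rose by 1.45 ± 0.23, Sting1, the adaptor for cytosolic DNA, by 1.00 ± 0.18 and its upstream enzyme Cgas by 1.05 ± 0.30. Of 20 further type I response genes 12 rose, with Oas3 (1.56 ± 0.25) and Oas1g (1.19 ± 0.24) among them. Of 19 tested further gamma response genes 11 rose. The chemokine Cxcl10 was at 2.34 to 5.13 CPM on chow and 13.7 to 29.5 on the diet (2.54 ± 0.35, adjusted p = 1.0e-05), and Cxcl9 was at 6.04 to 12 and 12.8 to 40.9 (1.30 ± 0.27, adjusted p = 0.00067). H2-D1, an MHC class I heavy chain, rose by 0.81 ± 0.09 and the lysosomal reductase Ifi30 by 1.21 ± 0.18. No gene of these lists passed the test in Hom against wildtype on CDAHFD.

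Markers of immune cells moved with the diet. Of 6 Kupffer cell and macrophage markers 5 rose, their summed level going from 154 to 306 CPM on chow to 353 to 540 in wildtype CDAHFD (Clec4f 0.57 and Adgre1 1.28 on the log2 scale). All 5 monocyte markers rose, with a sum of 46.4 to 87.8 CPM on chow and 91.0 to 286 on the diet (Ly6c2 1.55, Ccr2 2.36). The T cell sum was 3.47 to 5.73 on chow and 4.12 to 7.43 on the diet, with 1 of 6 markers higher (Cd8a). The natural killer sum was 1.51 to 3.05 and 2.73 to 5.77, with 1 of 5 tested markers higher. The plasmacytoid dendritic cell sum was 34.9 to 50.9 and 35.0 to 55.0, with 2 of 5 higher. Conventional dendritic cell markers were at 6.73 to 9.93 and 11.9 to 32.0, with 3 of 5 higher, and the 3 tested neutrophil markers rose. Of the hepatocyte markers 3 of 5 fell, their sum being 85993 to 111889 CPM on chow and 55366 to 88103 on the diet. No marker of B cells, sinusoidal endothelium, cholangiocytes or stellate cells passed the test. The part of these levels in the changes of the 38 genes was not tested.

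In the libraries that stand apart, these sums were not alike. Chow sample 4 had the highest Kupffer and macrophage sum (306 CPM) and monocyte sum (87.8) of its group. Hom sample 1 was at 404 and 97.6 CPM, inside the Hom ranges of 250 to 514 and 79.9 to 168. Hom sample 4 had the lowest Kupffer and macrophage sum of its group (250) and a monocyte sum of 90.9. The 3 libraries thus lay at the top, inside and at the bottom of the macrophage range of their groups. The mitochondrial share was 15.3% in chow sample 4 and 16.3% in chow sample 5, the 2 chow libraries with the highest type I means, and 8.64% in chow sample 3, which had the lowest. In Hom it was 10.45%, 11.2% and 11.6% in samples 1, 4 and 7, the 3 libraries with the highest means in both classes, and 6.77% to 8.89% in the other 5. This order did not hold throughout for either class. In wildtype CDAHFD the type I mean was 5.14 in sample 3, at a mitochondrial share of 8.28%, and 4.92 in sample 5, at 11.5%. The gamma-inducible mean of that group was lowest (5.40) in sample 5 and highest (5.70) in sample 3. In Het the gamma-inducible mean was highest (5.75) in sample 7, at 7.00%. Het sample 4, at 11.5%, had 5.48 but the highest type I mean of its group. In chow the gamma-inducible mean was lowest in sample 2, at 12.3%. The part of the mitochondrial share in these levels was not tested.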

How the data were processed

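Reads went through cutadapt 3.5 and Salmon 1.4.0, and the builds were GRCm39 and mm39, per the submitters' processing notes. The deposited table holds estimated counts per Ensembl gene, and 54.4% of its values above 0 are exactly whole (equal to their rounded value, with no tolerance). The step from transcripts to genes, and any use of strand in counting, are not given in the sources used here. GENCODE names of GRCm38 matched 51475 IDs (92.5%); Sting1 and Mtarc1 stand there under older symbols. Groups came from the sample titles.

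Estimated counts were rounded and scaled by TMM (edgeR 4.0.16, R 4.3.3). Filtering by group, a robust quasi-likelihood fit of all 4 groups and Benjamini-Hochberg adjustment ran over 17104 genes; the fit was tested on simulated data. Alternatives were DESeq2 1.42.0, limma-voom 3.58.1, other scalings, no filter, a replicate block, library series and each library left out. Libraries of one group differed by more than sampling noise (lowest chi-square per degree of freedom 15.4), and the common biological variation was 21.5%. With 19728398 to 29906599 estimated counts a library, precision for most members was set by the spread between libraries. CPM compares a gene across libraries, not genes of different length.

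The members, lists and tests were chosen with earlier results of these data known. Values by library were printed for the 5 members per class with the lowest p for the diet, the 2 per class with the lowest p in each genotype comparison, and the 4 widest; of each further list up to 4 called genes were named, and some fixed receptors, ligands and factors always. Promoter windows came from RefSeq, and 10 members had none. A gene of the pathway lists is not reported here.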

Additional observations from a re-analysis of the deposited data

Results flagged for a closer look

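A library far from the rest of its group (Dixon's criterion) was found in 6 of 152 tests of a member within a group. Chance gives about 1 in 20, so the count is no more than chance gives. Oasl1 was highest in chow sample 4, at 11.2 CPM against 9.56 in the next library. Parp14 was also highest there, at 43.8 CPM against 35.4. Rtp4 was highest in Hom sample 1, at 54.2 CPM against 34.5. Rsad2 was lowest in Het sample 2, at 13.9 CPM against 21.4. Ddx58 was lowest in wildtype CDAHFD sample 5, at 31.5 CPM against 37.4. Psmb9 was lowest in wildtype CDAHFD sample 1, at 27.8 CPM against 33.4. The 3 high values lay in chow sample 4 and Hom sample 1. These libraries were picked above from the same values, so the overlap adds no support.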

How the results depend on the processing

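For the diet, the count of higher genes was 27 with DESeq2, 26 with limma-voom, RLE or upper-quartile factors, 23 with no filter, 24 with only the 2 groups or a term for the library series and 31 with raw library totals. In the series of 5-digit library numbers alone it was 13. Scaling by raw library totals, added after seeing the data like the runs on the 4-digit series and without the 3 libraries, moved the median of all genes from -0.01 to 0.22. Leaving out 1 library gave 19 (without chow sample 2) to 27 genes for the diet, 24 to 30 for Hom against chow and 16 to 27 for Het against chow. In the genotype comparisons on CDAHFD it gave 0 to 0 called members. The 13 members called in every setting were 9 type I and 4 gamma-inducible. Of the 27 called members, those called least often over the 22 alternative settings were Cmpk2 (10), Ifih1 and Irgm2 (11 each), Psmb9 (12), and Rsad2 and Gbp6 (13 each). No called value changed sign for the diet, while the uncalled values of Ifit1, Gbp7, Igtp, Irf1 and Iigp1 did under at least 1 alternative. Of the 10 genes printed by library for the diet, Gbp3 alone lost its call, in the 5-digit series (0.64, adjusted p = 0.072). The labels do not say that sample numbers pair the libraries. Over 34 pairs the correlation of deviations ran from -0.371 to 0.316 (median 0.0683), with 16 above 0.1. Of 26 libraries, 7 correlated best with their own number. No chance level was computed for these values, so they do not settle whether the numbers pair the libraries. With a replicate block on these numbers, 25 members were higher for the diet, 27 for Hom and 24 for Het against chow, and 0 were called between genotypes. Depth limits the interferon ligands and Ubd on chow.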

Other observations

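Over the 28 members with a promoter window, an ISRE core stood in 6 of the 19 that rose on the diet (31.6%) and in 7 of the 9 that did not pass the test (77.8%). A GAS stood in 4 of 19 (21.1%) and 4 of 9 (44.4%). These are counts of letters in short windows, noticed after the values were seen, and no test was made. Windows covered 19 of the 27 members that rose and 9 of the 11 that did not pass. The members without one include Usp18 and Ifi27l2b, which rose strongly.

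A few immune genes of the pathway lists that rose on the diet had lower values in Hom than in wildtype on CDAHFD, without passing the adjusted test. They were chosen after their values were seen, and their lists did not move together: of the 12 sensing adaptors 6 were above and 6 below 0 (median -0.01), and of the 8 inhibitors 4 and 4. At an unadjusted p under 0.05, 3 of the 12 sensing adaptors and 3 of the 8 inhibitors were lower, and none was higher. Of all genes tested, 6.07% were lower at such a p and 3.90% higher. Tlr7 was at 1.02 to 1.76 CPM on chow, 2.66 to 5.94 in wildtype CDAHFD, 2.19 to 4.23 in Het and 1.41 to 2.99 in Hom, a log2 difference between Hom and wildtype of -0.79 (unadjusted p = 0.00033). Socs1, an inhibitor of Janus kinases, had -0.79 (unadjusted p = 0.0056) and Sting1 -0.42 (unadjusted p = 0.012). The summed monocyte markers were at 91.0 to 286 CPM in wildtype and 79.9 to 168 in Hom, and the part of this in those differences was not tested.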
